A study of Mus musculus with 16 samples.

Results

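The Cyp2d genes encode a family of cytochrome P450 enzymes, and 8 of them were followed across mouse livers: Cyp2d9, Cyp2d10, Cyp2d11, Cyp2d12, Cyp2d13, Cyp2d22, Cyp2d26 and Cyp2d40. They were chosen by symbol from the 41585 rows of a table of read counts per gene, in which 12 rows have a symbol that starts with Cyp2d. The 16 liver RNA libraries came from C57BL/6 mice of both sexes, all kept on food with 60% fat for 16 weeks, with 4 libraries in each of 4 groups. These were Cyp2b-null females, hCYP2B6-Tg females, Cyp2b-null males and hCYP2B6-Tg males, and the study asked what human CYP2B6 does in obesity brought on by diet. Cyp2b-null mice lack mouse Cyp2b genes and hCYP2B6-Tg mice carry human CYP2B6. The labels give neither age, nor the promoter of the transgene, nor whether the transgenic mice also lack Cyp2b genes. There was no group on ordinary food, so every level below is that of a liver on the fat-rich diet.

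P450 enzymes sit in the endoplasmic reticulum and oxidise drugs, steroids and fatty acids, drawing electrons from cytochrome P450 reductase. Mouse Cyp2d genes are relatives of human CYP2D6, a major drug-metabolising enzyme, and lie side by side in 1 cluster. Cyp2d9 is known as a testosterone 16-alpha-hydroxylase of male liver, a gene that depends on the pulsed release of growth hormone in males and on the factor STAT5b. Cyp2d22 is often regarded as the mouse gene closest in function to CYP2D6. The roles of the other members are less well described.

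By RefSeq on GRCm38.p6, the build named in the submitters' processing notes, the cluster spans 423.9 kb at chr15:82370527-82794452. From the low-numbered end it holds Cyp2d22 (chr15:82370527-82380260, minus strand), Cyp2d11 (chr15:82389154-82394022, minus), Cyp2d10 (chr15:82402845-82407253, minus), Cyp2d9 (chr15:82452377-82456827, plus), Cyp2d12 (chr15:82555043-82559413, plus), Cyp2d13 (chr15:82636750-82642045), Cyp2d40 (chr15:82759833-82764122, minus) and Cyp2d26 (chr15:82790107-82794452, minus). RefSeq classes Cyp2d13 as a transcribed pseudogene and the other members as protein coding. Members are close copies: the GENCODE transcripts of Cyp2d10 and Cyp2d11 were identical at 94.2% of aligned bases, and that of Cyp2d9 was identical at 93.4% to Cyp2d11, 91.6% to Cyp2d10 and 91.4% to Cyp2d12. Of all stretches of 50 bases in a transcript, another Cyp2d gene held 39.8% for Cyp2d10, 36.5% for Cyp2d11, 28.3% for Cyp2d9, 24.1% for Cyp2d40, 16.3% for Cyp2d12, 10.5% for Cyp2d26 and 6.14% for Cyp2d22. The sources used here do not give the strand setting of the counting or its treatment of reads that fit several genes. Counts of single members are therefore uncertain where such reads could be split, and least so for Cyp2d22 and Cyp2d26.

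RefSeq promoters, from 250 bases before to 50 bases after the start, were at hand for 5 members: Cyp2d9, Cyp2d10, Cyp2d11, Cyp2d26 and Cyp2d40. Those of Cyp2d9 and Cyp2d11 are shown whole because these 2 near-identical promoters belong to the member with the largest sex difference and to a low member in which no such difference passed the test. Capitals mark matches to 3 motifs searched on both strands: TTCCGG, the core that ETS-type factors such as GABP bind, CAAAGGNCA, an HNF4-type core, and TATAAGG, a core promoter box. No 2 matches overlapped.
Cyp2d9, chr15:82452127-82452426, plus strand: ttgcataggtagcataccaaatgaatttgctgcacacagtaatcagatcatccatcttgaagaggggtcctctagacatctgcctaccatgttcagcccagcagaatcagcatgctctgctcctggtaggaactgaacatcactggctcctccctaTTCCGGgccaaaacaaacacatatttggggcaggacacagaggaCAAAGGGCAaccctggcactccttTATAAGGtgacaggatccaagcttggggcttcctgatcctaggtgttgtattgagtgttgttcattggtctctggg
Cyp2d11, chr15:82393973-82394272, minus strand: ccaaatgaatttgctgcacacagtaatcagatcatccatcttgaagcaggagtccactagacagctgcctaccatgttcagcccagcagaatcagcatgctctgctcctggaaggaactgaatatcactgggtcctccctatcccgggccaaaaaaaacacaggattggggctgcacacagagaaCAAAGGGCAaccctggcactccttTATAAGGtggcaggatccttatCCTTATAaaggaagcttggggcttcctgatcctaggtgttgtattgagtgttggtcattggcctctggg
These promoters were identical at 94.0% of 284 aligned bases, while Cyp2d9 shared 84.8% with Cyp2d10, 81.0% with Cyp2d40 and 65.3% with Cyp2d26. All 5 promoters held TATAAGG, as did 2.17% of 32851 mouse promoters of this length. The promoters of Cyp2d9, Cyp2d10, Cyp2d11 and Cyp2d40 held CAAAGGNCA, found in 1.93% of all promoters. TTCCGG was found in that of Cyp2d9 alone, 94 bases before the start, and in 14.9% of all promoters. A STAT5-type motif, TTCNNNGAA, was in none of the 5 windows and in 8.30% of all, which says only that these letters are not in this window.

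The region around the TTCCGG match is shown for the 4 promoters that aligned without a gap there, with the 6 aligned bases in capitals.
Cyp2d9: ggctcctccctaTTCCGGgccaaaacaaac
Cyp2d11: gggtcctccctaTCCCGGgccaaaaaaaac
Cyp2d10: agctcctccctaCAGGTGgacaaacaaaac
Cyp2d40: ggcctgtctctaCACTTAgccaaacaaaac
Counted from the first of the 300 bases of the Cyp2d9 window, Cyp2d11 differed within the 6 bases by T158C. Cyp2d10 and Cyp2d40 each differed at 5 of the 6 bases. A match describes letters, and binding or methylation was not measured here.

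The libraries held 5584587 to 9672708 counts each. Levels are in CPM, counts scaled to a common library size by TMM. A count of 0 still allows 0.310 to 0.537 CPM, depending on the library and taking 3 counts as the limit, for counting error only. Mouse Cyp2b9, Cyp2b10, Cyp2b13, Cyp2b19 and Cyp2b23 had 0 to 8 counts in the Cyp2b-null libraries and 0 to 27 in the hCYP2B6-Tg libraries; the human gene was not analysed here. Xist and Ddx3y matched the labelled sex in all 16 libraries. The 6 hepatocyte markers summed to 97670 to 128800 CPM. Cyp2b-null male 4 stood apart with 270 counts of the bile duct marker Krt19 and 159 of the pancreatic Ctrb1, against 0 to 12 and 0 to 1 elsewhere, while the pancreatic markers Cpa1, Pnlip and Clps were at 0 in every library. Earlier work on these data also doubted Cyp2b-null females 1 and 3 and hCYP2B6-Tg male 4, so results are given without these libraries where that matters. The labels do not state that each library is a separate animal, so the p-values reflect variation among the libraries, part of which may be technical.

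All 8 members passed the filter on low counts. Over both genotypes, 4 of the 8 differed between the sexes in edgeR's quasi-likelihood test with Benjamini-Hochberg adjustment over all 13470 genes tested, against 17% of all genes. Cyp2d9, Cyp2d12 and Cyp2d10 were lower in females, as were 8.64% of all genes, and Cyp2d26 was higher, as were 8.34%. Within each genotype the calls were Cyp2d9 and Cyp2d12, both lower in females. All genes tested gave 3.95% lower and 3.57% higher in Cyp2b-null females, and 5.56% lower and 4.69% higher in hCYP2B6-Tg females. None of the 8 differed between genotypes. The Cyp2d9 difference was about 42.1-fold, that of the low Cyp2d12 4.22-fold, and those of Cyp2d10 and Cyp2d26 were both 1.13-fold.

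**Figure D1:**
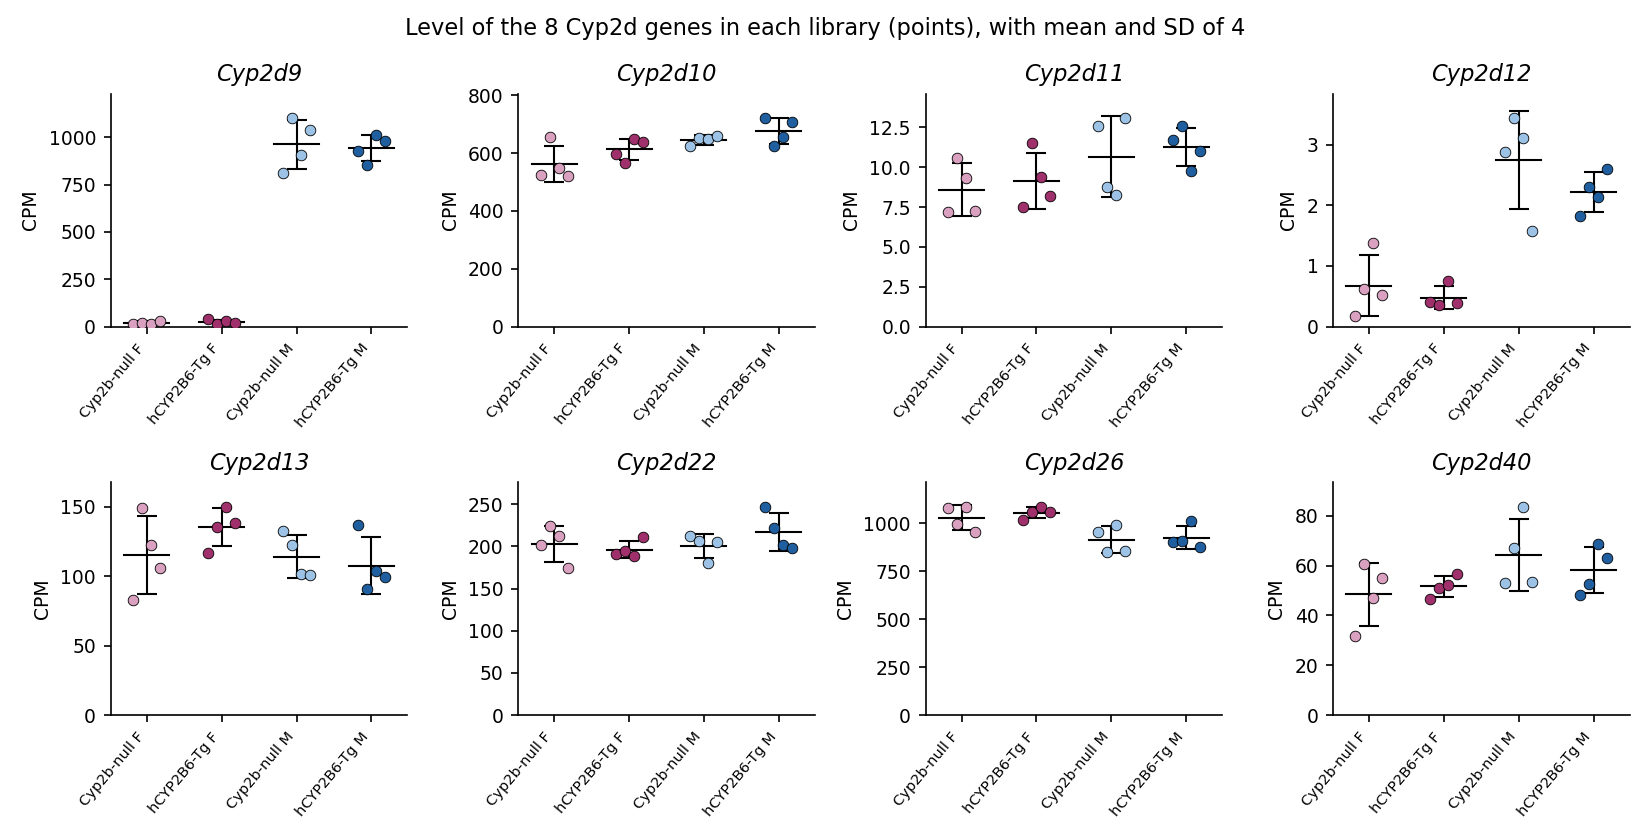
CPM of each Cyp2d gene (vertical axes start at 0 and differ between genes) in the 4 libraries of each group, as points, with the mean as a line and the SD as a bar. Cyp2d9 lay between 14.7 and 40.4 CPM in females and between 809 and 1099 CPM in males, and the genotypes overlap in every panel within a sex.

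Cyp2d9, the testosterone hydroxylase, was far higher in male livers. In Cyp2b-null females its level was 15.2, 19.1, 14.7 and 30.4 CPM (libraries 1, 3, 4 and 5), and in hCYP2B6-Tg females 40.4, 15.2, 26.9 and 19.5 CPM (libraries 1, 2, 4 and 5). In Cyp2b-null males it was 809, 1099, 908 and 1036 CPM (libraries 1 to 4), and in hCYP2B6-Tg males 928, 851, 1012 and 981 CPM (libraries 2 to 5). All 8 male libraries lay far above all 8 female ones, as they did for 2.6% of the genes tested, while the reverse held for 1.7%. Cyp2b-null male 4, with its bile duct and pancreas markers, lay inside the range of the other males. In bulk liver, fewer cells that express a gene and less RNA per cell cannot be told apart.

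The female against male log2 fold change of Cyp2d9 was -5.58 ± 0.31 (SE) in Cyp2b-null livers, 47.8-fold more in males (95% interval 30.2 to 75.7, adjusted p = 5.71e-08 by edgeR's quasi-likelihood test), where 7.52% of genes passed. In hCYP2B6-Tg livers it was -5.22 ± 0.30, 37.2-fold more in males (23.7 to 58.3, adjusted p = 8.30e-08, edgeR), where 10.3% passed. The difference between these sex effects was 0.36 ± 0.38 on the log2 scale, with a 95% interval of -0.46 to 1.18 and an adjusted p of 0.867 (edgeR). Counted from the largest male excess, Cyp2d9 stood at place 21 of 13470 genes in Cyp2b-null livers and at place 23 in hCYP2B6-Tg livers. Of a list of 5 fat cell markers only Cfd was tested, and it moved the same way. Cfd had 0 to 3 counts a library in females and 4.19 to 29.9 CPM in males. Adipoq, Plin1, Lep and Retn were too low to test, with 12, 9, 1 and 2 counts over all 16 libraries. The part of fat cells in the Cyp2d9 difference was not tested.

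The low female level of Cyp2d9 was not even. hCYP2B6-Tg female 1 and Cyp2b-null female 5 were the highest, and the lowest, Cyp2b-null female 4, was well below both. For each 1000 counts of Cyp2d10, the close copy with the most counts, female libraries had 26.8 to 67.5 counts of Cyp2d9 (median 29.9) and male libraries 1289 to 1686. Whether some female Cyp2d9 counts are reads of another member was not tested.

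Cyp2d12, the next gene along the cluster on the same strand, was scarce. Its CPM was 0.175, 0.622, 1.38 and 0.520 in Cyp2b-null females and 0.403, 0.349, 0.755 and 0.383 in hCYP2B6-Tg females. Males had 2.88, 3.43, 3.11 and 1.58 CPM when Cyp2b-null and 1.83, 2.30, 2.13 and 2.61 CPM when hCYP2B6-Tg. These values rest on 36 counts in all 8 female libraries together (1 to 12 each) and 143 in the males (11 to 25 each). Every male library was above every female one, though the lowest male, Cyp2b-null male 4, came close to the highest female, Cyp2b-null female 4.

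The Cyp2d12 log2 fold change of females against males was -1.91 ± 0.40 (SE) in Cyp2b-null livers (3.76-fold more in males, adjusted p = 0.00258) and -2.24 ± 0.45 in hCYP2B6-Tg livers (4.72-fold, adjusted p = 0.00164), both by edgeR's quasi-likelihood test. Without Cyp2b-null females 1 and 3 and hCYP2B6-Tg male 4, the Cyp2b-null value was -1.55 with an adjusted p of 0.0424 (edgeR). Of the stretches of 50 bases in the Cyp2d12 transcript, 11.1% also lie in Cyp2d9, and of stretches of 100 bases 3.79%. In males there were 1.52 to 3.56 counts of Cyp2d12 for each 1000 of Cyp2d9, and in females 9.97 to 93.8. Whether reads of Cyp2d9 add to the male counts of Cyp2d12 was not tested.

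Cyp2d10 was among the strong members and slightly higher in males. Cyp2b-null females had 524, 655, 549 and 521 CPM and hCYP2B6-Tg females 598, 567, 648 and 639 CPM. Cyp2b-null males had 623, 652, 648 and 661 CPM and hCYP2B6-Tg males 720, 625, 654 and 708 CPM. The sexes overlapped, with Cyp2b-null female 3 and hCYP2B6-Tg females 4 and 5 inside the male range. The log2 fold change of females against males, averaged over the genotypes, was -0.17 ± 0.06 (adjusted p = 0.0402, edgeR's quasi-likelihood test). It was -0.20 ± 0.08 within Cyp2b-null livers (adjusted p = 0.151) and -0.14 ± 0.08 within hCYP2B6-Tg livers (adjusted p = 0.297), both by edgeR. Without Cyp2b-null female 3, 1 of the doubted libraries, the difference within Cyp2b-null livers passed, at -0.28 ± 0.08 (adjusted p = 0.0289, edgeR). It did not pass in the 15 other fits that left out a single library, nor in 10 other settings. These include the fit without Cyp2b-null females 1 and 3 and hCYP2B6-Tg male 4 together. The averaged call was lost in 10 of the 16 fits that left out a single library, with adjusted p up to 0.0977: those without Cyp2b-null female 1, 4 or 5, hCYP2B6-Tg female 1 or 2, Cyp2b-null male 2, 3 or 4, or hCYP2B6-Tg male 2 or 5. It was also lost with library totals in place of TMM (adjusted p = 0.109).

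Cyp2d26, the member with the highest level in females, ran the other way. Cyp2b-null females had 1081, 998, 1086 and 953 CPM and hCYP2B6-Tg females 1016, 1060, 1086 and 1059 CPM. Cyp2b-null males had 955, 853, 992 and 857 CPM and hCYP2B6-Tg males 905, 909, 1013 and 878 CPM. Most female libraries were above most male ones, but Cyp2b-null females 3 and 5 fell within the male range. The averaged log2 fold change of females against males was 0.18 ± 0.05 (adjusted p = 0.0215), with 0.17 ± 0.08 in Cyp2b-null livers (adjusted p = 0.194) and 0.19 ± 0.08 in hCYP2B6-Tg livers (adjusted p = 0.125), all by edgeR's quasi-likelihood test. The averaged call was lost without Cyp2b-null female 4 (adjusted p = 0.0511), Cyp2b-null male 2 (0.0572), Cyp2b-null male 4 (0.0554) or hCYP2B6-Tg male 5 (0.0509), all by edgeR.

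Some cell type markers also differed between the sexes averaged over the genotypes in edgeR's test. Over all genes tested, 8.34% were higher and 8.64% lower in females. Of 5 markers of Kupffer cells, the macrophages of the liver, 2 were higher in females: Clec4f by 0.45 ± 0.08 and Vsig4 by 0.74 ± 0.09 on the log2 scale. The 5 summed to 317 to 530 CPM in Cyp2b-null females, 336 to 400.2 in hCYP2B6-Tg females, 232 to 354 in Cyp2b-null males and 259 to 322 in hCYP2B6-Tg males. Of 5 stellate cell and fibroblast markers 1 was higher, Dcn by 0.22 ± 0.07, and their sums were 213 to 237, 188 to 234, 150.2 to 211 and 164 to 194 CPM in the same order. Of the 6 hepatocyte markers Alb was higher in females (0.23 ± 0.06), and Ttr (-0.16 ± 0.05) and Serpina1c (-0.59 ± 0.07) were lower. Of 5 pericentral markers, for hepatocytes near the central vein, Lgr5 (0.86 ± 0.15) and Axin2 (0.47 ± 0.15) were higher in females. Glul, Oat and Cyp2e1 did not pass. Cyp2e1, far more abundant than Lgr5 and Axin2, leaned the other way (-0.18 ± 0.06, adjusted p = 0.0538, edgeR). Within Cyp2b-null livers Cyp2e1 passed as lower in females (-0.30 ± 0.09, adjusted p = 0.0478, edgeR). Of 5 periportal markers, for hepatocytes near the portal vein, Hal was higher (0.43 ± 0.09) and Cyp2f2 lower (-0.49 ± 0.07). The part of cell makeup in the small sex differences of Cyp2d10 and Cyp2d26 was not tested.

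The other 4 members did not pass the test for sex. Cyp2d22 was level, at 174 to 224 CPM in females and 180 to 247 CPM in males (averaged log2 fold change -0.06 ± 0.06, 95% interval -0.19 to 0.07). The pseudogene Cyp2d13 ran from 82.5 to 149.7 CPM in females and from 90.4 to 137 CPM in males, with a log2 fold change of 0.17 ± 0.11 (-0.07 to 0.41). Cyp2d40 had 31.7 to 60.8 CPM in females and 48.3 to 83.6 CPM in males, at -0.29 ± 0.13 (-0.55 to -0.02), and Cyp2d11 had 7.18 to 11.5 CPM against 8.23 to 13.1 CPM, at -0.30 ± 0.13 (-0.57 to -0.03). For these last 2 the adjusted p was 0.141 and 0.128 in edgeR's quasi-likelihood test, and their unadjusted p was 0.0373 and 0.0325. A sex difference of the size seen for Cyp2d9 lies outside all 4 intervals. GENCODE has Gm49431, a plus-strand gene of its antisense class, over Cyp2d13. The sources used here do not give the strand of Cyp2d13 or the strand setting, so their reads cannot be told apart.

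**Figure D2:**
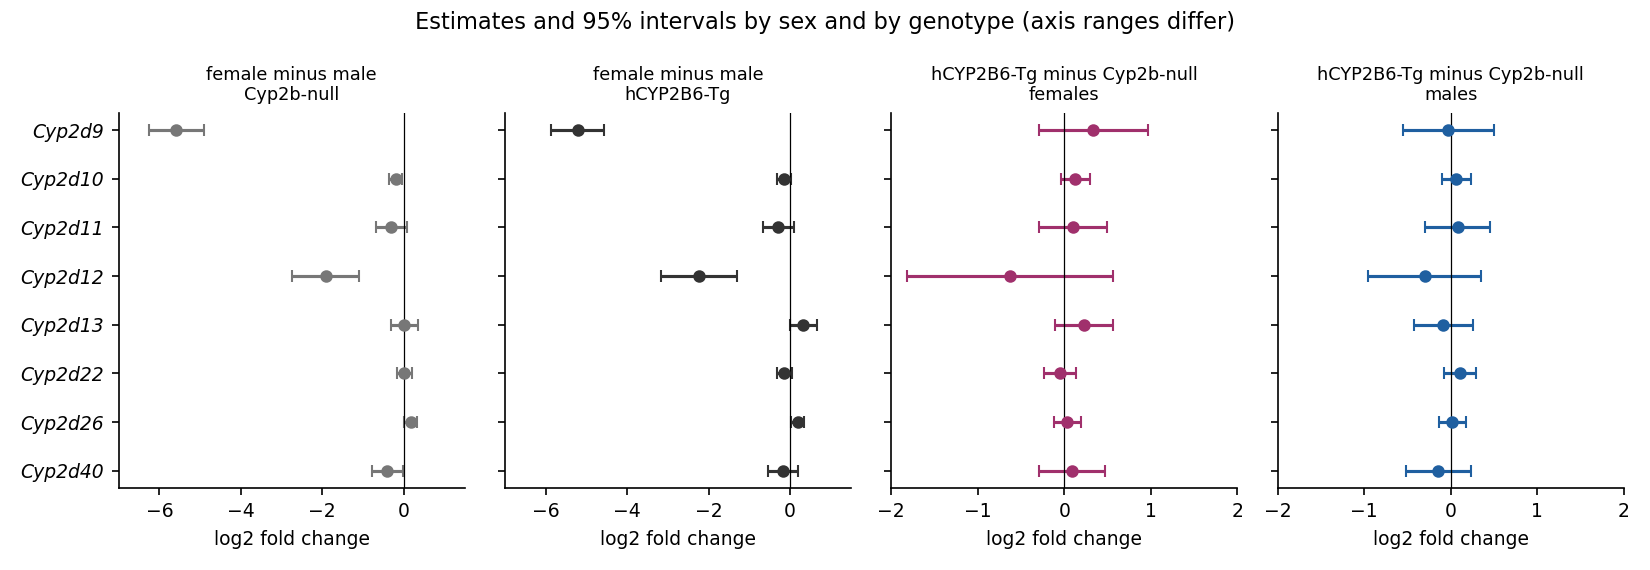
Log2 fold changes (points) with 95% intervals (bars) for the 8 genes, for females against males in each genotype and for hCYP2B6-Tg against Cyp2b-null livers in each sex, with the zero line marked; the sex panels span a wider range. Intervals for Cyp2d9 and Cyp2d12 lie wholly below 0 in both sex panels, that of Cyp2d26 lies wholly above 0 in both, those of Cyp2d10 and Cyp2d40 lie wholly below 0 in Cyp2b-null livers, and all 16 genotype intervals include 0; the intervals are not adjusted for the number of genes.

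No genotype difference was detected in any member. In females 0 of 8 members passed (0% of all genes did), in males 0 of 8 (0.111% of all genes), averaged over the sexes 0 of 8 (0.0148%), and in the difference between the sexes 0 of 8 (0.0445%), all by edgeR's quasi-likelihood test. At an unadjusted p under 0.05 the count was also 0 of 8 in each, beside 1022, 966, 935 and 1037 of all 13470 genes. DESeq2 and limma voom called 0 members as well, but few genes of any kind. Over all genes DESeq2 called 4 higher and 8 lower in females, and 23 higher and 24 lower in males. Voom called 0 in females, and 3 higher and 3 lower in males. With so few calls over all genes, 0 of 8 says little about the members. For Cyp2d9 the hCYP2B6-Tg against Cyp2b-null ratio was 1.26 in females (95% interval 0.815 to 1.95, adjusted p = 0.838) and 0.979 in males (0.680 to 1.41, adjusted p = 0.991), by edgeR. The most tightly measured was Cyp2d26, with a ratio of 1.02 in females (0.920 to 1.14) and 1.01 in males (0.909 to 1.13). Cyp2d10 had 1.09 in females (0.971 to 1.22) and 1.05 in males (0.933 to 1.18), and Cyp2d22 had 0.966 (0.851 to 1.10) and 1.08 (0.951 to 1.23). Changes beyond these bounds are outside the 95% intervals, whereas for the scarce Cyp2d12 the female interval, 0.284 to 1.47, is too wide to set a useful limit. The median log2 fold change of the 8 members was 0.09 in females and -0.01 in males, beside 0.00 in both sexes for all genes tested.

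The summed level of the 8 genes was 1988 ± 117 CPM (SD, n = 4) in Cyp2b-null females, 2086 ± 71.0 in hCYP2B6-Tg females, 2915 ± 86.5 in Cyp2b-null males and 2943 ± 129 in hCYP2B6-Tg males. The lowest male sum, 2765 CPM, was above the highest female sum, 2161 CPM. Without Cyp2d9 the sums were 1968 ± 122, 2061 ± 74.9, 1952 ± 60.7 and 1999 ± 74.6 CPM in the same order. The male to female ratio of the mean sum was 1.44 with Cyp2d9 and 0.981 without it, and no test was made of either sum. Reads moved from 1 of the 8 members to another leave the sum of all 8 unchanged. Reads dropped for fitting several genes would lower it, and the sum without Cyp2d9 still depends on how reads were split.

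**Figure D3:**
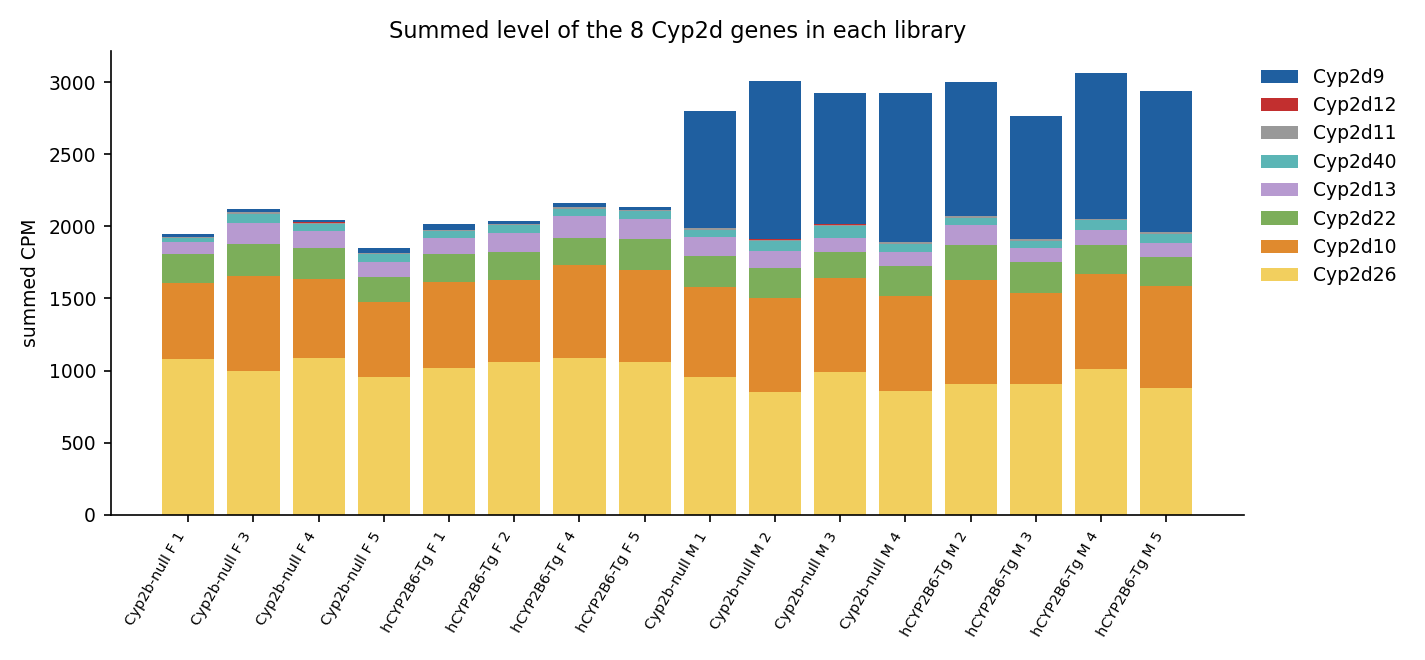
Stacked bars of the CPM of the 8 Cyp2d genes in each of the 16 libraries, ordered by group. Male bars reach 2765 to 3065 CPM and female bars 1848 to 2161 CPM. Without the Cyp2d9 segment on top, the male to female ratio of the mean sum is 0.981.

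Per kilobase of transcript, which allows genes to be compared, the order of levels changed between the sexes. This could be done for 7 members, as Cyp2d13 had no GENCODE transcript. In females Cyp2d26 made up 55.6% ± 2.46 (SD, n = 8) of the level per kilobase, followed by Cyp2d10 with 32.3% ± 1.87, Cyp2d22 with 6.53% ± 0.428, Cyp2d40 with 3.90% ± 0.672, Cyp2d9 with 1.21% ± 0.505, Cyp2d11 with 0.504% ± 0.0839 and Cyp2d12 with 0.0313% ± 0.0201. The ranges of neighbours in this order did not overlap. In Cyp2b-null males Cyp2d9 held 34.5% ± 3.68 (n = 4) and Cyp2d26 33.1% ± 3.25, and in hCYP2B6-Tg males 33.5% ± 1.20 and 33.2% ± 1.69, so that these 2 did not differ beyond their spread. Cyp2d10 followed in males with 24.1% ± 0.467 and 25.0% ± 1.54 in the same order of genotypes. Cyp2d22, Cyp2d40, Cyp2d11 and Cyp2d12 took the lower places in males, where the ranges of Cyp2d22 and Cyp2d40 overlapped.

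**Figure D4:**
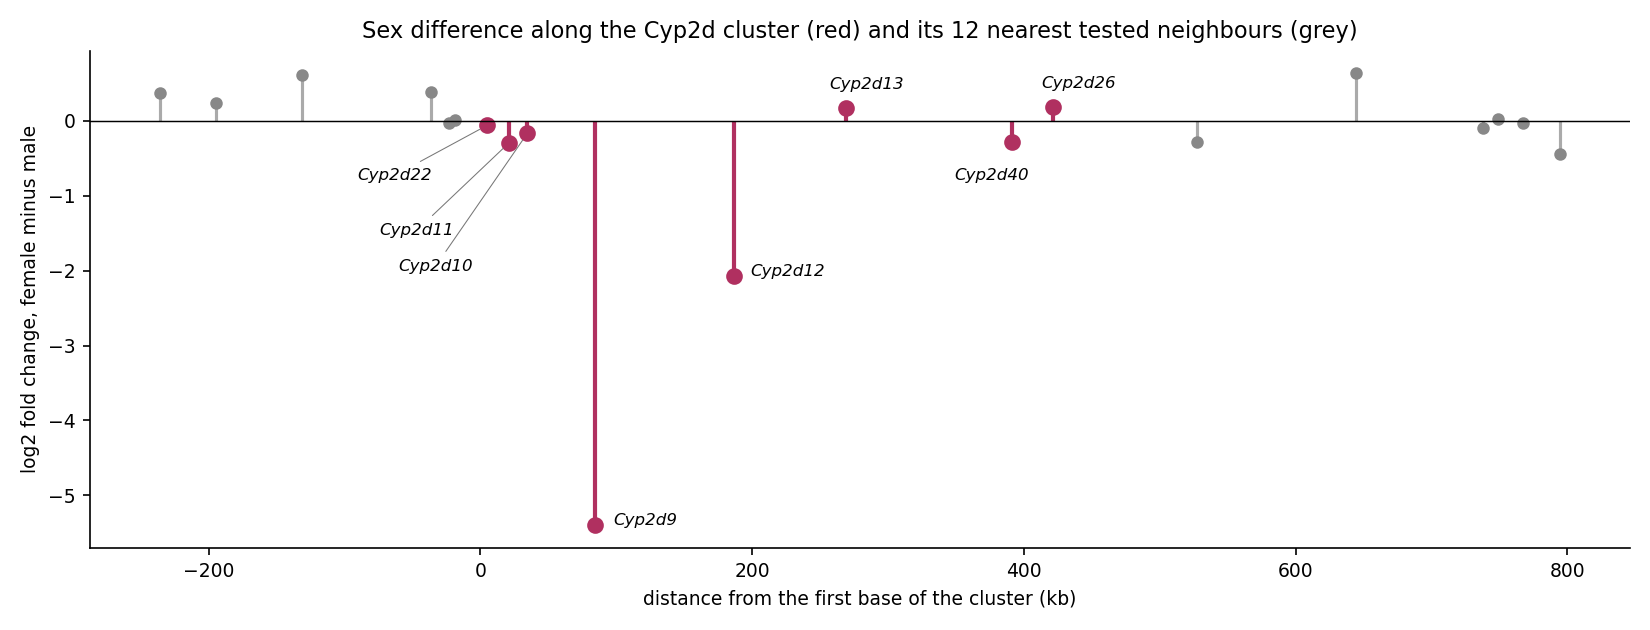
Log2 fold change of females against males, averaged over the genotypes (vertical axis), by distance in kb from the first base of the cluster (horizontal axis), for the 8 Cyp2d genes in red and 12 tested neighbours in grey. Cyp2d9 at -5.40 and Cyp2d12 at -2.08 stand beside members near 0.

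Along the chromosome the large sex differences were those of Cyp2d9 and Cyp2d12, both on the plus strand. Of the 6 nearest tested genes on each side of the cluster, 6 of 12 passed for sex averaged over the genotypes, against 17% of all genes. Among them, Srebf2, the regulator of cholesterol synthesis, Cenpm and Nfam1 were higher in females, by 0.24 ± 0.06, 0.61 ± 0.21 and 0.63 ± 0.19 on the log2 scale. Tcf20 and Cyb5r3, a cytochrome b5 reductase, were lower, at -0.29 ± 0.08 and -0.44 ± 0.09. No neighbour passed for genotype by edgeR's quasi-likelihood test.

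Of 10 partners of P450 enzymes in electron transfer and heme supply, 1 was higher and 4 lower in females averaged over the genotypes, where 8.34% of all genes were higher and 8.64% lower. The median log2 fold change of these 10 was -0.17, beside 0.01 for all genes tested, and 0 passed for genotype. The 4 lower ones were Cyb5r3, the membrane heme-binding proteins Pgrmc1 (-0.24 ± 0.05) and Pgrmc2 (-0.33 ± 0.08), and Cyb5b (-0.30 ± 0.07). The higher one was Hmox1, which breaks heme down, at 0.34 (adjusted p = 0.0363, edgeR). The reductase gene Por itself did not pass, at 286 ± 86.1 and 397 ± 63.0 CPM (SD, n = 4) in Cyp2b-null and hCYP2B6-Tg females and 303 ± 33.5 and 312 ± 64.4 CPM in the matching males. Alas1, the first enzyme of heme synthesis, passed for sex within Cyp2b-null livers, at 237 CPM in females against 654 CPM in males (log2 fold change -1.46 ± 0.40, adjusted p = 0.0438, edgeR). For genotype it had the next smallest p after Pgrmc2 in this list, at 237 against 521 CPM in females (adjusted p = 0.572) and 654 against 527 CPM in males (adjusted p = 0.927), by edgeR.

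Among 15 liver factors with known or likely roles at Cyp2d promoters, 0 were higher and 2 lower in females averaged over the genotypes (median -0.13), and 0 passed for genotype. Over all genes 8.34% were higher and 8.64% lower, so 2 of 15 is a share near the background. The lower ones were Cebpb (-0.53 ± 0.09), a factor of acute and metabolic responses, and Nr1h4 (-0.32 ± 0.07), the bile acid receptor FXR. Foxa1 (-0.33 ± 0.12) and Gabpa (-0.17 ± 0.06), a subunit of GABP, had adjusted p of 0.0580 and 0.0734 (edgeR). Hnf4a stood at 597, 589, 593 and 539 CPM in Cyp2b-null females, hCYP2B6-Tg females, Cyp2b-null males and hCYP2B6-Tg males. For genotype, Nr0b2, the repressor SHP, had 25.3 CPM in hCYP2B6-Tg males against 59.4 CPM without the transgene (adjusted p = 0.180), and Foxa3 in females had 27.0 CPM with the transgene against 50.1 CPM without it (adjusted p = 0.448), by edgeR. Foxa3 also passed for sex within hCYP2B6-Tg livers, with a log2 fold change of -0.74 ± 0.21 (adjusted p = 0.0358, edgeR).

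In the growth hormone axis 5 of 12 genes were higher and 1 lower in females averaged over the genotypes (median 0.16), against 8.34% and 8.64% of all genes, with 0 passing for genotype. Cux2, a repressor known from female liver, had 35.8 and 18.1 CPM in Cyp2b-null and hCYP2B6-Tg females and 0.225 and 0.154 CPM in the matching males, below the 3-count limit. Trim24 (1.49 ± 0.11), Igfals (0.56 ± 0.11), Stat5a (0.46 ± 0.11) and Stat5b (0.27 ± 0.08) were the others that were higher, and the receptor Ghr was lower (-0.21 ± 0.05). Jak2, the receptor's kinase, had the smallest genotype p of the axis, with adjusted p of 0.520 in females and 0.893 in males (edgeR).

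The genes most like each member over the 16 libraries were found by Pearson's r of log2 CPM, as a description. The libraries share sex, genotype and depth, so r is high for any gene with a like sex difference. Each gene named was also picked as nearest from all genes tested, over only 16 libraries. A high r can therefore arise by chance, also with group means removed. Cyp2d9 was nearest to Mup20 (0.992), a major urinary protein, and to the Y-linked Kdm5d (0.991) and Eif2s3y (0.990). With group means removed, its nearest genes were Cav1 (0.864), F3 (0.814) and Trappc1 (0.812). Cyp2d12 was nearest to Rpusd2 (0.939), Cyp2d26 to Rad51b (0.911), Cyp2d13 to Atp5sl (0.898), Cyp2d10 to Nmrk1 (0.873), Cyp2d11 to Wasl (0.868), Cyp2d40 to Tbcd (0.858) and Cyp2d22 to Gm10768 (0.819). With group means removed, Cyp2d13 was nearest to Pcyt2 (0.954), Cyp2d26 to Acad11 (0.906) and Cyp2d22 to Slc19a2 (0.906).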

How the data were processed

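Liver RNA was sequenced in 16 libraries, 4 for each genotype and sex, extracted with Trizol and made with the NEB Next Ultra kit per the labels. The authors deposited whole-number read counts per gene, and the submitters' processing notes list the build GRCm38.p6 and the tools GSNAP, Subread, edgeR, Trimmomatic and FastQC without versions. Of 41585 rows, 16032 had no count.

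From these counts, filterByExpr kept 13470 genes, TMM scaled the libraries and edgeR 4.0.16 (R 4.3.3) fitted 4 group means with its robust quasi-likelihood F test, two-sided, at a Benjamini-Hochberg adjusted p of 0.05. Counts of 0 to 3 a library limit precision for scarce genes. Alternatives were other scalings and filters, DESeq2 1.42.0, limma 3.58.1 (voom), the groups compared only, a replicate block and left-out libraries. Levels per kilobase used GENCODE transcript lengths, and promoters came from RefSeq. The genes named were all members and Cyp2d rows, the 6 nearest tested neighbours a side, the 3 most alike genes, and from each list up to 4 genes by sex and 2 by genotype with the smallest p. Genes named beside these (Por, Hmox1, Hnf4a, Stat5b, Ghr, Cenpm, Nfam1 and markers, and the sex values of Alas1 and Foxa3) were added after their values were seen. Some genes within this rule are not reported here. Members and lists were chosen with earlier results of these data known.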

Additional observations from a re-analysis of the deposited data

Results flagged for a closer look

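Within hCYP2B6-Tg females, Cyp2d12 stood apart in library 4, at 0.755 CPM against 0.349 to 0.403 CPM in the other 3. This was 1 of 32 sets of member and group examined for a single library far from the rest, and chance flags about 1 in 20 such sets. The value rests on 5 counts.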

How the results depend on the processing

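The sex effects of Cyp2d9 and Cyp2d12 kept their direction and their side of the threshold under every alternative run, with averaged log2 fold changes of -5.56 to -5.30 and -2.39 to -1.91. The number of members that differed by sex over both genotypes was 4, and 2 to 4 with a single library left out; it was 2 without Cyp2b-null female 4, Cyp2b-null male 2, Cyp2b-null male 4 or hCYP2B6-Tg male 5. All genotype counts stayed at 0. Title numbers did not pair the libraries: deviations from group means correlated at -0.062 to 0.075 between same-numbered libraries of the 2 genotypes within a sex and at -0.107 to 0.122 between those of the sexes within a genotype. With the replicate block, Cyp2d10 averaged over the genotypes no longer passed (-0.16, adjusted p = 0.0970, edgeR), Cyp2d40 in Cyp2b-null livers did (-0.47, adjusted p = 0.0468, edgeR), and the averaged count was 3.

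Signs turned only for values that passed no test; the cause was not tested. Cyp2d26 between male genotypes was -0.0052 with library totals and -0.025 without Cyp2b-null females 1 and 3 and hCYP2B6-Tg male 4. Without those libraries Cyp2d22 was 0.019 between female genotypes and -0.053 between the sexes in Cyp2b-null livers, and Cyp2d13 was -0.0039 there with voom. With single libraries left out, the sex effect in Cyp2b-null livers ran from -0.13 to 0.15 for Cyp2d13 and from -0.032 to 0.087 for Cyp2d22. The female genotype effect ran from -0.90 to 0.0035 for Cyp2d12, -0.045 to 0.20 for Cyp2d11, -0.072 to 0.20 for Cyp2d40 and -4.5e-05 to 0.064 for Cyp2d26. The male one ran from -0.100 to 0.044 for Cyp2d9, -0.023 to 0.21 for Cyp2d11, -0.023 to 0.065 for Cyp2d26 and -0.23 to 0.013 for Cyp2d40. Fits of only the libraries compared were not run for averages over groups, which need all 4. Depth limits Cyp2d12 most, since its female libraries held 1 to 12 counts.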

Other observations

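The 4 other Cyp2d rows were mostly near the limit of detection. Cyp2d37-ps, a pseudogene, had 129 to 357 counts in female and 142 to 321 in male libraries, or 35.3 and 30.8 CPM on average, and passed neither for sex nor for genotype. Its level moved with that of the pseudogene Cyp2d13 from library to library, with Pearson's r of 0.865 over the 16 libraries and 0.871 with group means removed; both share depth and the region. Cyp2d41-ps had 0 to 3 counts in female and 1 to 11 in male libraries, 11 and 47 in all. For each 1000 counts of Cyp2d9 that is 0 to 34.5 in females and 0.125 to 1.81 in males, and 7.22% of its stretches of 50 bases lie in Cyp2d9. Cyp2d34 had 17 counts and Cyp2d67-ps 6 over all 16 libraries.

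Of 14 listed P450 genes outside the Cyp2d family, 8 passed as higher and 3 as lower in females averaged over the genotypes. Over all genes 8.34% were higher and 8.64% lower, and the median log2 fold change of the 14 was 0.61. Cyp2c40 had 369 and 422 CPM in Cyp2b-null and hCYP2B6-Tg females and 13.5 and 10.0 CPM in males, and Cyp2c39 17.5 and 19.0 CPM against 3.05 and 4.88 CPM. Cyp3a41a had 658 and 880 CPM in females and was below the 3-count limit on average in males, and Cyp4a12a, at 75.7 and 104 CPM in males, was so in females. Of genes listed as male-biased in liver, which earlier results of these data helped to choose, 13 of 14 tested were lower in females (8.64% of all genes), with Mup20 at 8.34 and 9.52 CPM against 811 and 842 CPM, Elovl3 at 1.70 and 2.07 against 131 and 103 CPM, and Cyp7b1 at 19.4 and 23.5 against 115 and 91.9 CPM. Of 16 genes listed as female-biased, likewise chosen with earlier results of these data known, 15 were higher in females (8.34% of all genes). Among them were Cyp3a44 (41.0 and 47.9 CPM) and Sult2a1 (475 and 472 CPM), whose male means were below the 3-count limit. In these lists Egfr in males was the gene that passed for genotype, at 159 CPM in hCYP2B6-Tg livers against 404 CPM without the transgene (adjusted p = 0.0299, edgeR's quasi-likelihood test). The smallest genotype p of the other list genes and neighbours did not pass in edgeR: in males Cyp2a4 had 57.0 CPM in Cyp2b-null and 117 CPM in transgenic livers (adjusted p = 0.370), Cyp3a11 835 and 1220 CPM (adjusted p = 0.540) and Hsd3b5 130 and 56.2 CPM (adjusted p = 0.607). In females A1bg had 121 and 269 CPM (adjusted p = 0.549) and the cluster neighbour Ccdc134 2.25 and 4.79 CPM (adjusted p = 0.549).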
